A study of Arabidopsis thaliana with 8 samples.

Results

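Whole seedlings of Arabidopsis thaliana that had been exposed to 24-epibrassinolide (EBR) for 180 min were compared with seedlings exposed for 30 min, to learn which microRNA (miRNA) families had a different level at the later time. EBR is a highly active brassinosteroid. The comparison used the 2 arrays labelled EBR at 180 min (EBR180) and the 2 labelled EBR at 30 min (EBR30), which are 4 of the 8 arrays of the series. The EBR180 and EBR30 seedlings were 7-day-old Col-0 plants given 10 nM EBR. The other 4 arrays hold seedlings of the same age given a mock solution with the solvent DMSO for 180 min (mock180) or 30 min (mock30), 2 arrays each. All seedlings were grown in liquid medium with sucrose under continuous light, and no group is labelled with a transgene or mutation. Root and shoot were extracted together, so a change in one organ, in a number of cells or in the RNA per cell cannot be told apart. Only miRNAs were measured, and the tissue could not be checked against marker genes.

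Each array gave 1 value for each of 161 miRNAs, from duplicate or triplicate probes read in a single colour. For 43 miRNAs the value was above 0.01, the lowest value in the table, on all 8 arrays, and these 43 were tested. Each of their values is a ratio to the median of that miRNA in the series, so a ratio of 1 marks the middle of the 8 arrays and the level of one miRNA cannot be set against that of another. Of the other miRNAs, 114 were listed at 0.01 on all arrays and 4 on some of them. No spot brightness was given, and error was estimated from the spread between the duplicate arrays of each group.

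miRNAs are short RNAs that guide an Argonaute protein to matching messenger RNAs, which are then cut or translated less. A plant miRNA family is a set of loci with near-identical mature sequences that mostly regulate 1 family of targets, often transcription factors. Brassinosteroids are growth hormones that promote cell elongation and division, and they signal through the receptor kinase BRI1 and the transcription factors BZR1 and BES1. Because members of a family differ at few bases, their probes may capture some of each other's RNA, and the members are not independent measurements.

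The array medians were higher with EBR180. Over the 43 miRNAs, the EBR180 arrays had median ratios of 1.12 and 1.02, against 0.970 and 0.988 for the EBR30 arrays. Both EBR180 medians lay above both EBR30 medians, and replicate 1 of EBR180 was the higher of its pair for 41 of the 43 miRNAs. On the log2 scale the array medians averaged 0.10 with EBR180 and -0.03 with EBR30, a difference of 0.13. In a two-sided exact permutation test its p was 0.33, the smallest that 2 arrays against 2 can give. How the arrays were scaled to each other is not described, so an array-wide change in miRNA and a difference in scaling cannot be told apart, and each result is given as deposited (uncentred) and after the median of each array was set to 0 on the log2 scale (centred).

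**Figure D1:**
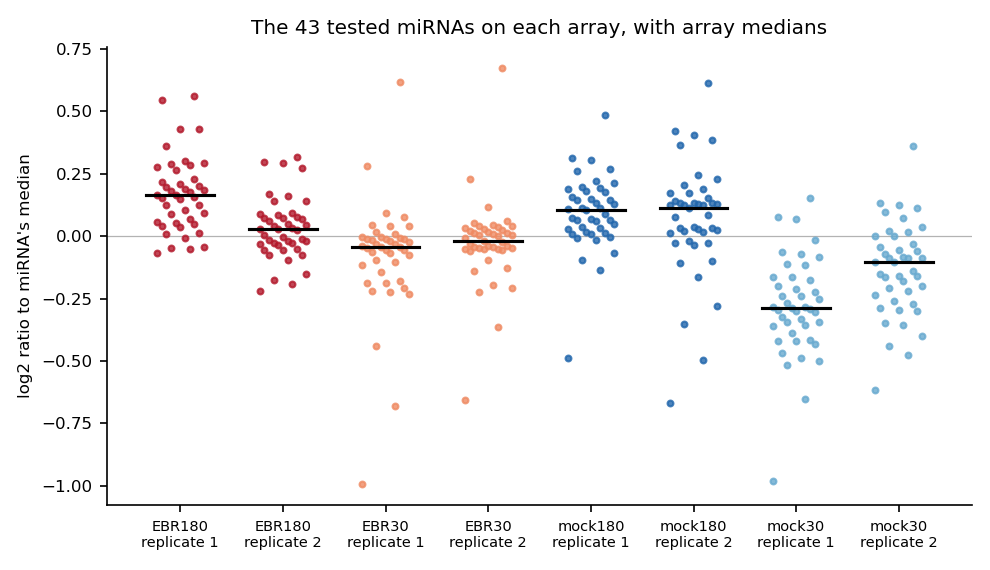
The log2 ratio of each of the 43 tested miRNAs (points) on each of the 8 arrays (horizontal axis), with the array median as a bar. The EBR180 points lie higher on replicate 1 than on replicate 2, and the median of each EBR180 array lies above the medians of both EBR30 arrays.

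Few miRNAs differed between the EBR times. With a linear model over all 8 arrays (limma) and a Benjamini-Hochberg adjusted p under 0.05, 7 of the 43 miRNAs were higher with EBR180 (16.3%) and 1 was lower (2.33%). The 7 that rose were miR825, miR397a, miR172e, miR171a, miR171b, miR398b and miR170, and the 1 that fell was miR846. Their changes were between 0.46 and 0.89 in size on the log2 scale, while the largest change that did not pass was 0.31. The change was under 0.25 in size for 32 miRNAs, and the 95% interval of each change reached 0.24 to either side. That interval is not adjusted for the 43 tests, and no change of up to 0.31 passed. A change that did not pass in this uncentred fit cannot be taken as absent. Without EBR180 replicate 1, 4 of the 8 passed (miR172e, miR397a, miR825 and miR846), and when each miRNA was judged by its own spread in the 4 groups, miR172e and miR397a did (adjusted p = 0.0258 for both).

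Small upward differences were common. Of the 43 changes, 34 were above 0 and 9 were below, with a median of 0.10. Both EBR180 arrays lay above both EBR30 arrays for 22 miRNAs (51.2%) and below them for 4 (9.30%), a count that includes the shift of the arrays as a whole. After centring the median change was -0.03, 18 changes were above 0, and 16 miRNAs had the other sign. Both centred EBR180 values then lay above both EBR30 values for 17 miRNAs (39.5%) and below for 13 (30.2%).

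Centring also changed the list of calls. With centred values 7 miRNAs were higher with EBR180 (16.3%) and 5 were lower (11.6%). miR398b no longer passed, miR172b* was added among the higher ones, and miR395b, miR822, miR823 and miR869.2 were added among the lower ones. The 7 miRNAs called in the same direction both ways were miR825, miR397a, miR172e, miR171a, miR171b, miR170 and miR846. In the uncentred fit every miRNA was given the same standard error of 0.12, also where its duplicates lay far apart, whereas centred standard errors ran between 0.037 and 0.22, so a call could change through the error alone. The centred list rested on all 4 EBR arrays, with 2 calls (miR172e and miR397a) when replicate 1 of EBR180 was left out and 6 when its replicate 2 was, and with 5 and 4 calls when the same was done for the EBR30 replicates.

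**Figure D2:**
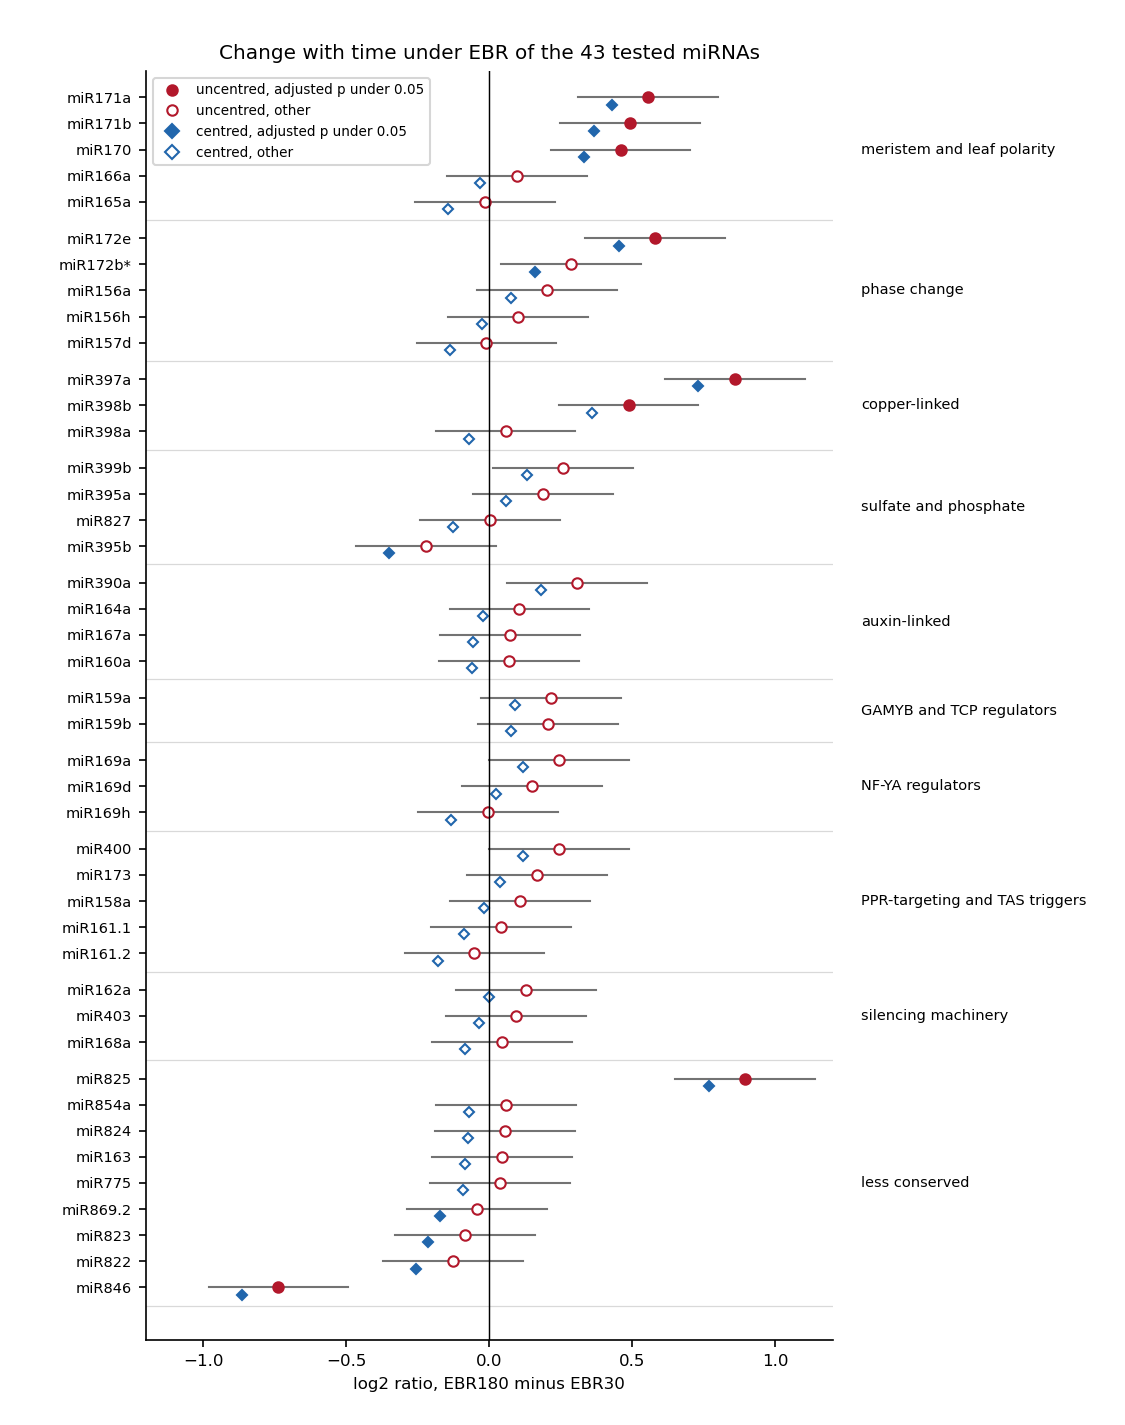
The change of each of the 43 miRNAs as log2 of EBR180 over EBR30 (horizontal axis), uncentred (circles, with 95% intervals) and centred (diamonds), grouped by what the miRNAs regulate, with filled symbols for an adjusted p under 0.05. The miR170 and miR171 members lie together between 0.46 and 0.56, while miR846 lies alone at -0.74.

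The miR170 and miR171 family rose with all of its measured members. It targets SCARECROW-LIKE transcription factors of the GRAS class, also called HAIRY MERISTEM genes, which keep shoot meristems undifferentiated. The deposited ratio of miR171a (locus AT3G51375) was 1.48 and 1.22 with EBR180, against 0.865 and 0.968 with EBR30. That of miR171b (AT1G11735) was 1.46 and 1.25 with EBR180, against 0.935 and 0.983 with EBR30. That of miR170 (AT5G66045) was 1.35 and 1.12 with EBR180, against 0.877 and 0.909 with EBR30. For each of these miRNAs both EBR180 arrays lay above both EBR30 arrays, and replicate 1 of EBR180 was the highest of the 8 arrays.

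The mean ratio of miR171a was 1.35 ± 0.179 with EBR180 and 0.916 ± 0.0730 with EBR30 (SD, n = 2 each), a 1.47-fold rise (log2 0.56, 95% interval 0.31 to 0.80, adjusted p = 0.000129). miR171b rose 1.41-fold (log2 0.49, interval 0.25 to 0.74, adjusted p = 0.000804) and miR170 rose 1.37-fold (log2 0.46, interval 0.21 to 0.70, adjusted p = 0.00168). The median change of the 3 was 0.49, against 0.10 over all 43. Centring left changes of 0.43, 0.36 and 0.33 in the same order, with adjusted p of 0.0132, 0.0266 and 0.0159. Without EBR180 replicate 1 the uncentred calls of the 3 were lost, at changes of 0.42, 0.38 and 0.33. None of the centred calls held with every array left out in turn. Those centred changes ran between 0.36 and 0.50 for miR171a, 0.32 and 0.41 for miR171b, and 0.26 and 0.40 for miR170. miR165a and miR166a, which target the HD-ZIP III factors of leaf polarity and meristems, had changes of -0.02 and 0.10 and did not pass.

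In the family of miR172, which targets APETALA2-like repressors of the adult phase and of flowering, the mature miR172e rose. Its ratio (AT5G59505) was 1.35 and 1.23 with EBR180, against 0.856 and 0.866 with EBR30. The duplicates lay close together at both times and the groups did not overlap. The means were 1.29 ± 0.0831 with EBR180 and 0.861 ± 0.00696 with EBR30, a 1.50-fold rise (log2 0.58, interval 0.34 to 0.82, adjusted p = 6.91e-05). The centred change was 0.45 (adjusted p = 0.000598). Its call held with any one array left out.

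miR172b* (AT5G04275), the passenger strand of another locus of the family, had ratios of 1.13 and 0.990 with EBR180 and 0.860 and 0.874 with EBR30. Both EBR180 arrays were again the higher ones, but the change of 0.29 did not pass uncentred (adjusted p = 0.0975). It passed centred, at 0.16 (adjusted p = 0.0266), a call that was lost when any one of the 4 EBR arrays was left out. The family's remaining entry, miR172c, was listed at 0.01 on all arrays. miR156 and miR157 target the SPL factors, act before miR172 in the passage from juvenile to adult leaves and decline as that passage proceeds. miR156a, miR156h and miR157d had changes of 0.20, 0.10 and -0.01, and none passed.

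The copper-linked miRNAs were divided. This group is induced when copper is scarce, through the factor SPL7, and represses copper proteins such as laccases and Cu/Zn superoxide dismutases. Of its 6 listed entries, 3 could be tested and 2 of them rose, where 16.3% of all 43 miRNAs were higher. The median change of the 3 was 0.49, against 0.10 over all 43 miRNAs. After centring only miR397a of the group passed, where 16.3% of all 43 miRNAs were higher and 11.6% lower.

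miR397a (AT4G05105), which targets laccases, the enzymes that polymerise lignin, had ratios of 1.22 and 1.06 with EBR180, against 0.624 and 0.635 with EBR30. The EBR30 arrays were the lowest of all 8 and lay close together, and the EBR times did not overlap. The means were 1.14 ± 0.111 with EBR180 and 0.629 ± 0.00771 with EBR30, a 1.81-fold rise (log2 0.86, interval 0.61 to 1.10, adjusted p = 2.26e-09). The centred change was 0.73 (adjusted p = 9.19e-05), and the call held with any one array left out.

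miR398b (AT5G14545) regulates Cu/Zn superoxide dismutase messenger RNAs. Its ratio was 1.15 and 0.979 with EBR180, against 0.737 and 0.777 with EBR30. The EBR times did not overlap, and the rise was 1.40-fold (log2 0.49, interval 0.24 to 0.73, adjusted p = 0.000828). The centred change of 0.36 did not pass in the fit to all 8 arrays (adjusted p = 0.266), where its standard error included mock180 duplicates at 1.02 and 0.629. In a centred fit to the EBR arrays alone, an alternative added after the values were seen, it passed (adjusted p = 0.0142). miR398b did not pass after quantile normalization (adjusted p = 0.177) or by its own spread in the 4 groups (adjusted p = 0.346). Without EBR180 replicate 1 the uncentred adjusted p was 0.416. The other member, miR398a (AT2G03445), had ratios of 1.05 and 1.03 with EBR180 and 1.03 and 0.970 with EBR30. It had a change of 0.06 (adjusted p = 0.843), which turned to -0.07 after centring.

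miR408 and miR857 of the same group were listed at 0.01 on some arrays and entered no test. miR408, which targets plantacyanin and laccases, had values of 1.07 and 0.835 with EBR180 and was listed at 0.01 on both EBR30 arrays. It thus stood above the lowest value on both EBR180 arrays and on neither EBR30 array. In the mock seedlings it was at 0.759 and 0.01 at 180 min, and at 0.806 and 0.717 at 30 min. miR857, which targets a laccase, was at 0.784 and 0.01 with EBR180 and at 0.01 on both EBR30 arrays. How the value of 0.01 was set is not described, so no fold change is given.

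The largest rise and the largest fall belonged to miR825 and miR846, a pair of less conserved miRNAs. miR825 (AT2G26211) had ratios of 1.23 and 1.21 with EBR180, against 0.502 and 0.857 with EBR30. The EBR180 arrays were close to each other, whereas the EBR30 arrays lay farther apart than those of any other tested miRNA, and the groups did not overlap. The means were 1.22 ± 0.0167 with EBR180 and 0.680 ± 0.251 with EBR30, a 1.86-fold rise (log2 0.89, interval 0.65 to 1.14, adjusted p = 8.84e-10). Because the uncentred standard error was common to all miRNAs, it did not reflect the spread of the EBR30 pair. By its own spread in the 4 groups miR825 did not pass (limma fit without moderation, adjusted p = 0.200). The change was 0.51 without EBR30 replicate 1 and 1.28 without EBR30 replicate 2. In the centred fit to the EBR arrays alone, added after the values were seen, miR825 did not pass (adjusted p = 0.115). The centred change was 0.77 (adjusted p = 0.0446), and that call held in 3 of the 8 fits with an array left out.

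miR846 (AT1G61226), which regulates jacalin-related lectin genes, was the single miRNA that fell both uncentred and centred. Its ratio was 0.994 and 0.886 with EBR180, against 1.53 and 1.60 with EBR30. The EBR30 pair was close together and well above the EBR180 pair. The means were 0.940 ± 0.0761 with EBR180 and 1.56 ± 0.0437 with EBR30, so that EBR30 was 1.67-fold higher (log2 change of EBR180 over EBR30 -0.74, interval -0.98 to -0.49, adjusted p = 2.47e-07). The centred change was -0.87 (adjusted p = 0.0159). The uncentred call held with any one array left out, while the centred one was lost without EBR180 replicate 1, EBR180 replicate 2 or EBR30 replicate 2 (adjusted p = 0.0927, 0.0632 and 0.0524).

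None of the remaining less conserved miRNAs passed uncentred, and miR822, miR823 and miR869.2 were lower after centring. miR822, which targets DC1-domain protein genes, had ratios of 0.970 and 0.962 with EBR180 and 1.03 and 1.08 with EBR30. miR823, which targets the DNA methyltransferase gene CMT3, had ratios of 0.965 and 0.948 with EBR180 and 0.992 and 1.04 with EBR30. miR869.2 had ratios of 1.00 and 0.901 with EBR180 and 0.963 and 1.00 with EBR30. The EBR180 arrays were the lower ones for miR822 and miR823, and the times overlapped for miR869.2. Their uncentred changes were -0.13, -0.09 and -0.04 and did not pass. The centred changes of -0.26, -0.21 and -0.17 did (adjusted p = 0.0171, 0.0446 and 0.0266). None of these miRNAs kept its centred call with every array left out in turn. In those fits miR822 ran between -0.32 and -0.19, miR823 between -0.27 and -0.16, and miR869.2 between -0.19 and -0.16. In mock seedlings their centred changes over the same times were -0.03, -0.20 and -0.08, and that of miR823 passed (adjusted p = 0.0447). The centred differences between the EBR and mock changes were -0.22, -0.01 and -0.09. None of these differences passed (adjusted p = 0.0590, 0.928 and 0.283). Over the 9 tested members of the less conserved group the median change was 0.04, with 1 higher and 1 lower, and centred 1 was higher and 4 were lower. Over all 43 miRNAs the shares were 16.3% higher and 2.33% lower, and centred 16.3% higher and 11.6% lower.

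**Figure D3:**
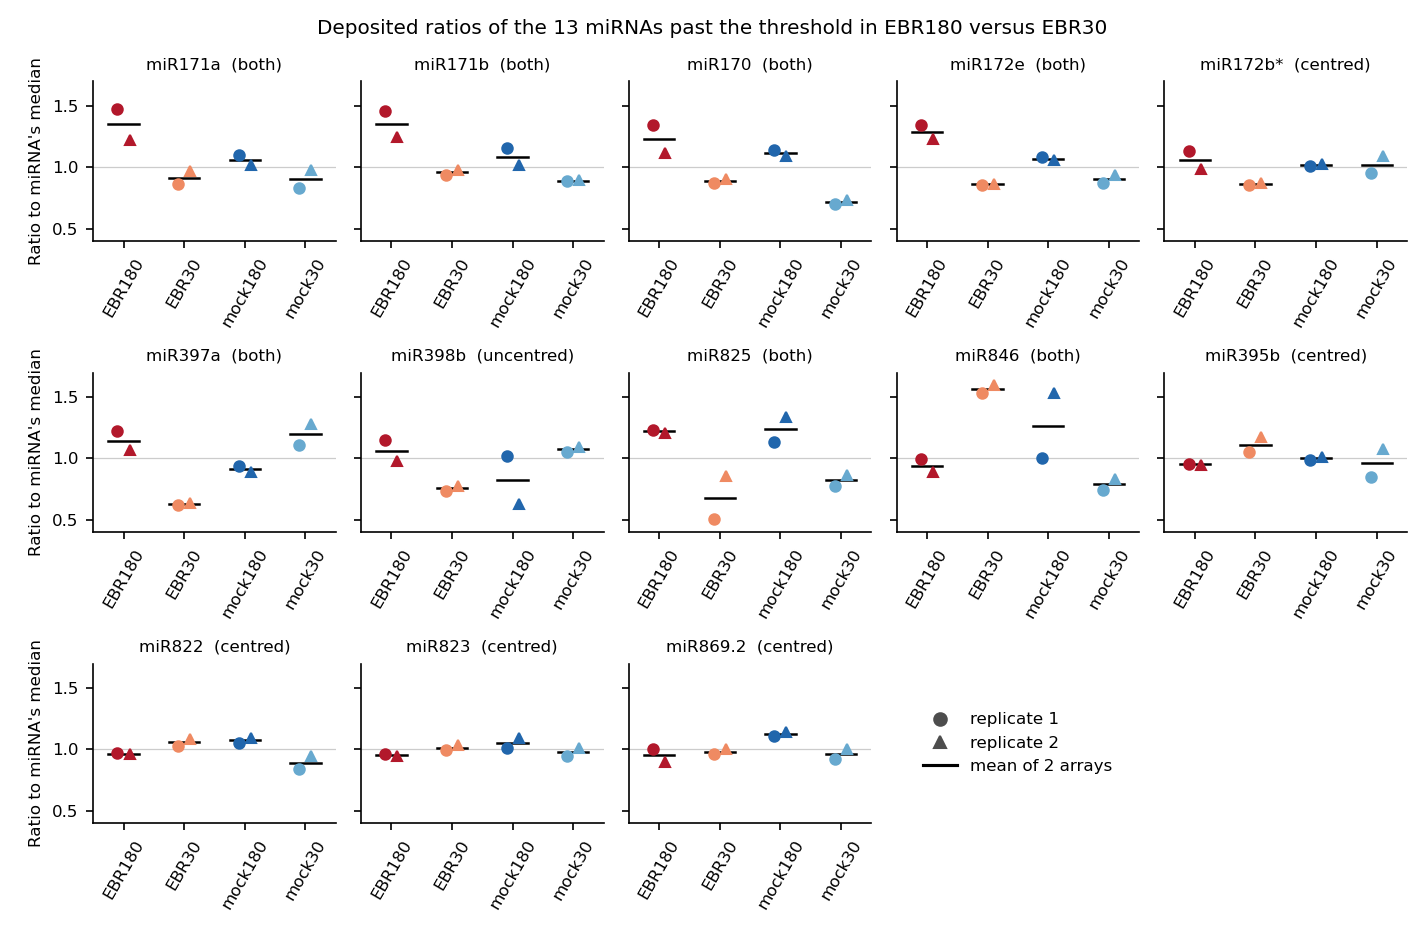
Deposited ratio of each of the 13 miRNAs past the threshold uncentred, centred or both (named in each panel title) in the 4 groups, with circles for replicate 1, triangles for replicate 2 and bars for the mean of 2 arrays. In the miR397a and miR846 panels the EBR30 pair stands apart from the EBR180 pair at 0.629 and 1.56 on average, while the EBR30 points of miR825 lie at 0.502 and 0.857.

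Of the 4 tested miRNAs of sulfate and phosphate supply none passed uncentred and 1 was lower centred. Among all 43 miRNAs, 16.3% were higher and 2.33% lower uncentred, and 16.3% higher and 11.6% lower centred. miR395, which is induced by sulfate shortage, targets ATP sulfurylases and a sulfate transporter, and its members lay on opposite sides. miR395a (AT1G26973) had ratios of 1.22 and 1.06 with EBR180 and 0.988 and 1.01 with EBR30. miR395b (AT1G26975) had ratios of 0.955 and 0.949 with EBR180 and 1.05 and 1.17 with EBR30. The EBR180 pair was thus the higher one for miR395a and the lower one for miR395b, but neither uncentred change passed (0.19, adjusted p = 0.326, and -0.22, adjusted p = 0.232). Centred, miR395b passed at -0.35 (adjusted p = 0.0197), while miR395a was at 0.06. The centred miR395b call was lost without EBR180 replicate 1 or without EBR30 replicate 2, with a change of -0.29 in each fit. In mock seedlings the centred change of miR395b was -0.24 (adjusted p = 0.0511). Its centred difference between the EBR and mock changes was -0.11 (adjusted p = 0.471). miR399b, which targets the phosphate regulator PHO2, had a change of 0.26 (adjusted p = 0.155), and 0.13 centred. miR827, which targets the phosphate regulator NLA, had a change near 0 (adjusted p = 0.992), and -0.13 centred.

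In 5 other groups no miRNA passed in the uncentred or the centred fit to all 8 arrays. In the auxin-linked group, with miR160a and miR167a against auxin response factors, miR164a against NAC factors and miR390a as the trigger of TAS3 small RNAs, the 4 changes lay between 0.07 and 0.31. The highest was that of miR390a, whose ratio was 1.14 and 1.12 with EBR180, against 0.851 and 0.988 with EBR30. Both EBR180 arrays were higher, and its adjusted p was 0.0704 uncentred and 0.138 centred. miR159a and miR159b, regulators of GAMYB-like factors, were at 0.22 and 0.21. The 3 tested miR169 members, which target NF-YA subunits, had a median of 0.15.

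The miRNAs that act on pentatricopeptide repeat (PPR) genes or start TAS small RNAs, namely miR158a, miR161.1, miR161.2, miR173 and miR400, had a median of 0.11 and lay between -0.05 and 0.24. Those that regulate the silencing machinery itself were between 0.04 and 0.13. They are miR162a against DICER-LIKE1, miR168a against ARGONAUTE1 and miR403 against ARGONAUTE2. These medians are close to the 0.10 over all 43 miRNAs, and with centring they came to 0.02 for miR169, -0.02 for the PPR and TAS group and -0.04 for the silencing group.

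The same times were compared in mock seedlings, to ask whether a change over time was particular to EBR. From mock180 over mock30, 25 of the 43 miRNAs were higher (58.1%) and 3 were lower (6.98%). The array medians differed by 0.30, more than the 0.13 with EBR. Centred, 7 were higher (16.3%) and 8 were lower (18.6%). The median size of a change was 0.13 with EBR and 0.34 in mock, and after centring 0.12 with EBR and 0.14 in mock. Across the 43 miRNAs the EBR and mock changes had a Pearson correlation of -0.25, given as a description since miRNAs are not independent replicates. In mock 38 of the 43 changes were above 0, among them 29 of the 34 that were above 0 with EBR and all 9 that were below 0 with EBR.

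The difference between the changes, EBR minus mock, was tested in the same fit. It was positive and past the threshold for 4 miRNAs (9.30%) and negative for 7 (16.3%). Centred it was positive for 8 (18.6%) and negative for 7 (16.3%), and all 11 of the uncentred calls were among these. Of the 8 miRNAs that changed with time under EBR, 3 were among the 11, namely miR397a, miR398b and miR846.

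miR397a and miR846 moved in opposite directions in EBR and mock seedlings. The ratio of miR397a was 0.935 and 0.892 with mock180, against 1.11 and 1.28 with mock30, a fall by 0.39 on the log2 scale (adjusted p = 0.00525). EBR30 seedlings were thus below and EBR180 seedlings above the mock seedlings of the same time, and the difference between the changes was 1.25 (adjusted p = 8.21e-10; centred 1.42). miR846 had ratios of 1.01 and 1.53 with mock180, against 0.746 and 0.834 with mock30. It rose in mock by 0.65 (adjusted p = 4.10e-06), with mock180 duplicates that lay far apart, and centred by 0.35, which did not pass (adjusted p = 0.171). The difference between its changes was -1.39 (adjusted p = 1.48e-11; centred -1.21, adjusted p = 0.0104).

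miR398b had a mock change of -0.42 (adjusted p = 0.00226), from ratios of 1.02 and 0.629 with mock180 and 1.05 and 1.10 with mock30. A single mock180 array was low. The difference between its changes was 0.91 (adjusted p = 9.46e-06), and centred 1.09 (adjusted p = 0.0280). With an array left out that difference ran between 0.56 and 1.26, and centred between 0.73 and 1.44. The centred call did not hold in every such fit. By its own spread in the 4 groups the uncentred difference did not pass.

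For the miR170 and miR171 family, miR172e and miR825 a change that differed from that in mock was not shown uncentred. miR170 had ratios of 1.14 and 1.09 with mock180, against 0.699 and 0.737 with mock30. It rose by 0.64 in mock (adjusted p = 5.66e-06), and the difference between the changes was -0.18 (adjusted p = 0.357). miR171b rose by 0.28 in mock (adjusted p = 0.0412), and the difference between its changes was 0.21 (adjusted p = 0.295). miR171a and miR172e each had a mock change of 0.24 that did not pass, with differences of 0.32 and 0.34 (adjusted p = 0.175 and 0.156).

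With centring, the differences of miR171a and miR172e were 0.49 and 0.51 and passed (adjusted p = 0.0117 and 0.00122), while that of miR171b was 0.39 (adjusted p = 0.0512). miR170 had a centred difference near 0 (adjusted p = 0.963), and whether these related miRNAs differ from each other was not tested. miR825 rose in mock by 0.59 (adjusted p = 3.09e-05). The difference between its changes was 0.31 (adjusted p = 0.189), and centred 0.48 (adjusted p = 0.283).

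Of the 25 miRNAs that rose in mock, 21 did not pass with EBR, and for 6 of these 21 the difference between the changes passed. They are miR169d, miR169h, miR161.2, miR400, miR824 and miR157d. All 3 tested miR169 members, all 5 of the PPR and TAS group and all 3 of the silencing group were higher with mock180 than with mock30, where 58.1% of all 43 miRNAs were. None of these 11 passed with EBR, where 16.3% of all 43 were higher and 2.33% lower, and no member of the silencing group passed the test of the difference. After centring, 2 miR169 members, 3 of the PPR and TAS group and none of the silencing group were higher with mock180. Centred, 16.3% of all 43 miRNAs were higher with mock180. The part of the scaling between arrays in these changes was not tested.

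**Figure D4:**
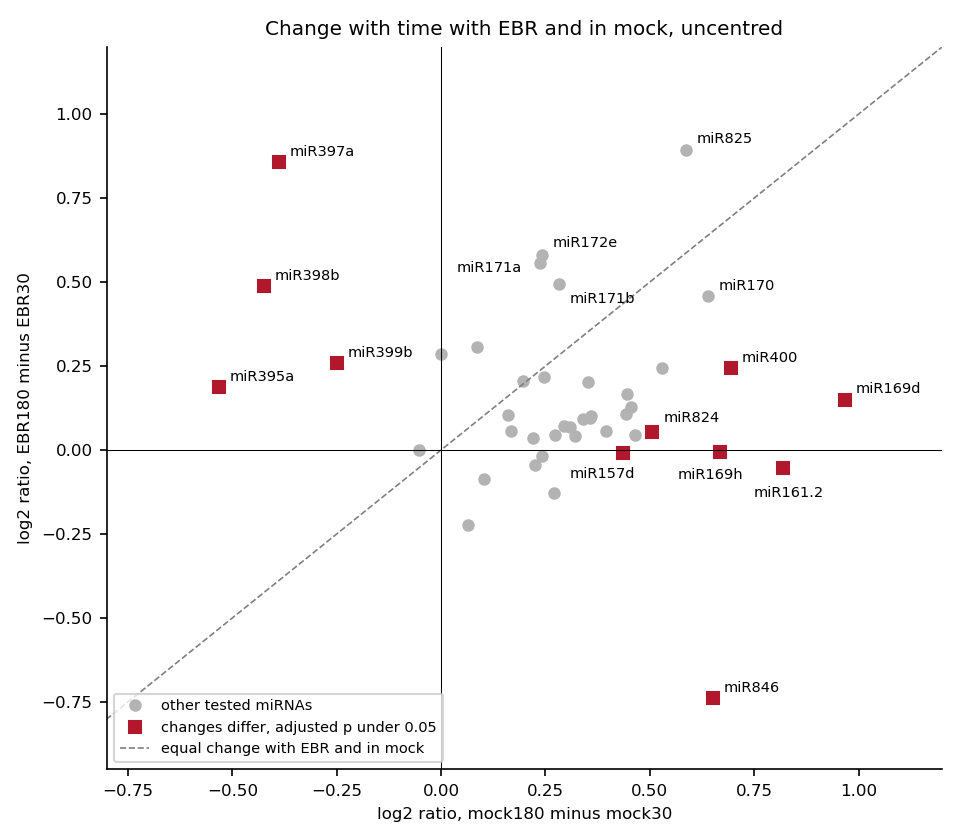
Change of each of the 43 miRNAs with time under EBR (vertical axis, log2 of EBR180 over EBR30) against the change in mock (horizontal axis, log2 of mock180 over mock30), uncentred, with a dashed line of equal change and squares where the changes differed. miR397a and miR398b lie at upper left, with a rise under EBR and a fall in mock, and miR846 lies at lower right.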

How the data were processed

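Total RNA labelled with Cyanine 3 was hybridised to Agilent arrays, read per the submitters' notes with Agilent Feature Extraction 9.1 and summarised by the authors in GeneSpring against a baseline taken from the median across samples. The deposited values are linear ratios, and all 43 tested miRNAs have a median of 1 over the 8 arrays. Background correction, scaling between arrays and the value 0.01 are not given in the sources used here. Groups came from the sample titles. The series' design text speaks of independent experiments at each time, but nothing says whether separate cultures were used, so p-values measure the spread between these arrays.

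The log2 ratio was fitted with limma 3.58.1 (R 4.3.3), with a mean for each of 4 groups over 8 arrays and empirical Bayes moderation, and p-values were adjusted by the Benjamini-Hochberg method over 43 miRNAs. The steps were tested on simulated data with the same spread for every miRNA and no shift of whole arrays. How unequal spreads or array shifts affect the calls was not part of that test. The methods name a one-way analysis of variance, with no adjustment stated. The nearest alternative here uses each miRNA's own spread in the 4 groups. It tested a single contrast with adjusted p-values, so it is not the same test. The tests, the miRNA groups and the 43 miRNAs were chosen with earlier results of these data known. All miRNAs past the threshold in EBR180 versus EBR30, uncentred or centred, are given with their values, and the others by family or role. All 43 were matched to a locus by symbol in RefSeq TAIR10.1. Alternatives were other scalings, a replicate block, other estimates of spread and the omission of each array.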

Additional observations from a re-analysis of the deposited data

Results flagged for a closer look

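For 11 miRNAs the change with time under EBR differed from the change in mock by limma's test of the difference itself, and for 8 of them the comparison of EBR180 with EBR30 had passed neither uncentred nor centred. The difference, EBR minus mock on the log2 scale, was 1.25 for miR397a, 0.91 for miR398b and -1.39 for miR846, which changed with time under EBR. Among the others it was 0.72 for miR395a and 0.51 for miR399b, where mock was lower at 180 min, by 0.53 for miR395a (past the threshold) and by 0.25 for miR399b (adjusted p = 0.0702). It was -0.87 for miR161.2, -0.82 for miR169d and -0.67 for miR169h, whose changes were -0.05, 0.15 and -0.01 with EBR and 0.82, 0.97 and 0.67 in mock. It was -0.45 each for miR400, miR824 and miR157d, with adjusted p of 0.0474 and EBR changes of 0.24, 0.05 and -0.01. The miR157d difference did not pass by its own spread in the 4 groups or with the 4 partly measured miRNAs included. With an array left out it ran between -0.55 and -0.34, and its call did not hold in every such fit.

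miR408 stood out among the miRNAs that entered no test. Its lower value with EBR180, 0.835, was above its highest value on any mock array, 0.806, while both EBR30 arrays were listed at 0.01. Because 3 of its 8 values were at 0.01, no test was made.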

How the results depend on the processing

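EBR180 versus EBR30 gave 8 calls uncentred. miR172e and miR397a passed in 28 of the 29 settings in which they were fitted, the exception being each miRNA's own spread over the EBR arrays alone (adjusted p = 0.197 for both). The count was 15 with a replicate block on centred values (8 with the replicate block alone), 2 with each miRNA's own spread over 4 groups, 0 with that spread over the EBR arrays alone (3 at an unadjusted p under 0.05), and 2 with the 4 partly measured miRNAs included. Same-numbered arrays deviated together only weakly (correlations of 0.11 to 0.36 over the 6 pairs of groups), and no label ties the numbers to a shared experiment. With the replicate block on centred values miR390a and miR161.2 passed (adjusted p = 0.0281 for both), as did miR157d (adjusted p = 0.0373). Leaving out 1 array gave 4 (without EBR180 replicate 1) to 11 calls (without EBR180 replicate 2), and on centred values, 12 at first, 2 (without EBR180 replicate 1) to 13. The 28 mock calls became 15 centred, 10 by quantile normalization, 0 with own spread over the mock arrays alone (14 unadjusted) and 10 centred in those arrays alone. The 11 calls for the difference became 20 with the block on centred values, 4 with own spread, 6 with the 4 miRNAs included, and 7 (without EBR30 replicate 1) to 13 with an array left out. The causes were not tested.

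Changes near 0 turned sign. miR398a was at -0.072 centred (also with the block, or with the EBR arrays alone) and at -0.085 by quantile normalization, and miR824 was at -0.074 and -0.067 in the same settings. With an array left out, miR824 ran between -0.011 and 0.12, miR157d between -0.056 and 0.036, miR161.2 between -0.19 and 0.087, miR169h between -0.050 and 0.040 and miR869.2 between -0.12 and 0.034. Over 685 combinations of 23 named miRNAs with a setting, with centred omissions of an array set against the centred result, the direction and call were kept in 567, a call was lost in 66 and gained in 37, and the sign turned in 15. With 2 arrays a group and no brightness, uncentred changes under about 0.24 could not be resolved even before adjustment for the number of tests. In the uncentred fit to all 8 arrays, changes of up to 0.31 did not pass the adjusted threshold.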

Other observations

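Both EBR30 arrays were the lowest of all 8 for miR397a, at 0.624 and 0.635, and the highest of all 8 for miR846, at 1.53 and 1.60. For miR846 a mock180 array came close to them, at 1.53, while the other was at 1.01.

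Among the miRNAs in no test, miR843 was at 0.754 and 0.617 with EBR180, at 0.646 and 0.01 with EBR30, at 0.694 and 0.705 with mock180 and at 0.645 and 0.784 with mock30. miR394a, which targets the F-box gene LEAF CURLING RESPONSIVENESS, was at 0.531 and 0.485 with EBR180, at 0.482 and 0.471 with EBR30, at 0.568 and 0.434 with mock180, and at 0.01 and 0.484 with mock30.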
